A study of Rattus norvegicus with 36 samples.

Results

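The transporters that carry drugs, bile constituents and other organic anions into and out of hepatocytes were followed in rat liver after 5 days of the brominated flame retardant bis(2-ethylhexyl) tetrabromophthalate (TBPH). A list of 9 genes was used, 4 for uptake (Slco1a1, Slco1a4, Slco1b2, Slc22a7) and 5 for efflux (Abcc2, Abcc3, Abcb1a, Abcb4, Abcg2). Each gene was read from the probe set that carries its symbol alone, and from the probe set with the highest mean over all arrays where there was more than 1. All 9 genes were found, with 12 such probe sets in all, among 14217 genes with a probe set of their own symbol. Slco1a4, Slco1b2 and Abcb1a had 2 probe sets each.

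Male Sprague Dawley rats, 7 weeks old at the start, were gavaged daily for 5 days with TBPH in corn oil (5 ml/kg), and RNA came from the left lobe 1 day after dosing ended. The 36 Affymetrix arrays fall into 6 groups of 6, namely corn oil alone (vehicle) and TBPH at 706, 70.6, 7.06, 0.71 or 0.07 mg/kg. All groups share strain, sex, diet, volume and route. The labels number the replicates but name no animals, so p-values refer to the spread among these samples, which may be technical.

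Hepatocytes take up bile acids, hormones and drugs from the blood through organic anion transporting polypeptides (the Slco genes) and organic anion transporters (Slc22a7) in the basolateral membrane. After metabolism, ATP-driven pumps of the ABC family export the products, into bile across the canalicular membrane or back into blood. Several of these genes are classical targets of the xenobiotic receptors CAR and PXR and of the antioxidant factor NRF2, so their transcripts are often read as signs of exposure to foreign compounds.

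Hepatocyte markers were bright in every array. The mean of 7 measured hepatocyte markers, with albumin (Alb) the brightest, lay between 13.07 and 13.36 log2 over the 36 arrays. Other liver cells were also represented. The marker means lay between 7.72 and 8.72 for Kupffer cells and between 8.14 and 8.41 for sinusoidal endothelium. For stellate cells the mean lay between 6.28 and 7.85. The mean of 5 cholangiocyte markers lay between 5.11 and 5.58, with single genes from 3.18 (Cftr) to 8.79 (Epcam). All 5 kidney tubule markers averaged under 5. A pair of arrays, from 70.6 mg/kg (replicate 5) and 0.07 mg/kg (replicate 4), were set off from the others by the first principal component (scores of 37.5 and 32.9 against -14.7 to 11.96 elsewhere) and by the 3′ to 5′ difference of the GAPDH controls (0.41 and 0.33 against at most 0.09 log2). The differences at these 2 doses and the main correlations are also given without these arrays. In bulk liver, fewer cells of a type and less RNA per cell cannot be told apart.

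Promoter windows were matched by gene ID for 8 of the 9 genes; the exception was Abcc3. RefSeq gives them on build GRCr8, from 250 bases before to 50 bases after the start of each gene. The windows of 2 pairs are shown, since Abcb1a and Abcb4 had the highest and Slco1a4 and Slco1b2 the lowest within-group correlation among the members; both pairs lie close together on chromosome 4, with Abcb1b alone between Abcb4 and Abcb1a and no other protein-coding gene between Slco1b2 and Slco1a4. Letters in capitals mark matches, on either strand, to the box of the TATA-binding protein written TATAAA, the box of nuclear factor Y written CCAAT, the GC box bound by Sp factors written GGGCGG, the core of the antioxidant response element written TGACNNNGC, the core of the HNF1 motif written GTTAAT or the hexamer of nuclear receptors written AGGTCA. No matches overlap in the windows shown.
Abcb1a, chr4:26397599-26397898, minus strand: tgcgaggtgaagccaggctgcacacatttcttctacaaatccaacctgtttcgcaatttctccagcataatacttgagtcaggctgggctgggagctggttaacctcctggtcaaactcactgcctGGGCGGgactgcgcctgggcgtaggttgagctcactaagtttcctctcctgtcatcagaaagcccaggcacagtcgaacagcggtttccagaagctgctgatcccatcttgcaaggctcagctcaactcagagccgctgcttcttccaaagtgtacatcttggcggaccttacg
Abcb4, chr4:26164096-26164395, minus strand: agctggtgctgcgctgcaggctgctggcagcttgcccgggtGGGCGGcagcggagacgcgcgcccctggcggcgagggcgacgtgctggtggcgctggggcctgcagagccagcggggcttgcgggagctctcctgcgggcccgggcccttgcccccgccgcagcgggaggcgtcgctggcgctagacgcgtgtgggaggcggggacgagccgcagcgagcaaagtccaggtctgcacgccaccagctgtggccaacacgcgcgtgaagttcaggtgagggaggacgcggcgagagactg
Slco1a4, chr4:176495797-176496096, minus strand: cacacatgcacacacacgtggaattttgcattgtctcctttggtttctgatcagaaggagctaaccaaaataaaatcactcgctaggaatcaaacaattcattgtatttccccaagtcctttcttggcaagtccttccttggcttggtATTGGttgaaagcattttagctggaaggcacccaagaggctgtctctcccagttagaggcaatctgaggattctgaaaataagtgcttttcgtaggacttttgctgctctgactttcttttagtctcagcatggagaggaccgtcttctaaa
Slco1b2, chr4:176282334-176282633, plus strand: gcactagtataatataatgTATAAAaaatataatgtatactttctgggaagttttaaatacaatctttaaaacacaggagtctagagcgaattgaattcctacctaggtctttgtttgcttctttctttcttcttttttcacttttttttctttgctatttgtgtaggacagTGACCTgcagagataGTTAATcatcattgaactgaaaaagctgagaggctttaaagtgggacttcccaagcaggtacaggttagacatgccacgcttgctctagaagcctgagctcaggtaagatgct

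The windows of Abcb1a and Abcb4 each held a single match, a GC box, and had a GC content of 53.7% and 74.3%. GC boxes were present in 5 of the 8 windows (Slc22a7, Abcc2, Abcb1a, Abcb4, Abcg2) and in 33.1% of all 33469 promoter windows of the same length. Slco1a4, at 43.0% GC, held only a CCAAT box, a motif in 4 of the 8 windows and in 37.5% of all. Slco1b2, at 36.3% GC, held the HNF1 core, the nuclear receptor hexamer and TATAAA. The HNF1 core was in 2 of the 8 windows, Slco1b2 and Abcc2, and in 7.45% of all, and the hexamer in the same 2 and in 16.2% of all. Among the 8 windows the antioxidant core stood in that of Abcc2 alone, against 12.1% of all windows. These matches describe the letters of the windows and show neither a bound site nor its absence.

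None of the 9 transporters was called higher or lower than vehicle at any dose of TBPH. At an adjusted p under 0.05 (limma on all 36 arrays, Benjamini-Hochberg over 31042 probe sets), 0 of the 45 gene and dose pairs passed, where 0% of all probe sets passed at 706, 70.6, 7.06, 0.71 or 0.07 mg/kg. At an unadjusted p under 0.05 the count was also 0 of 45, beside 3.48%, 5.24%, 3.48%, 3.98% and 3.07% of all probe sets at these doses in the same order. The 45 differences ran from -0.14 to 0.21 log2 with a median size of 0.04. Changes beyond 1.5-fold lay outside the 95% interval of all 45 pairs. For Abcc3, whose probe set was dim, the intervals bound the signal and may not bound the transcript. Dose and vehicle arrays overlapped in all 45 pairs, and the share of all probe sets without overlap was 0.142%, 0.168%, 0.216%, 0.155% and 0.148% at the doses in that order.

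**Figure D1:**
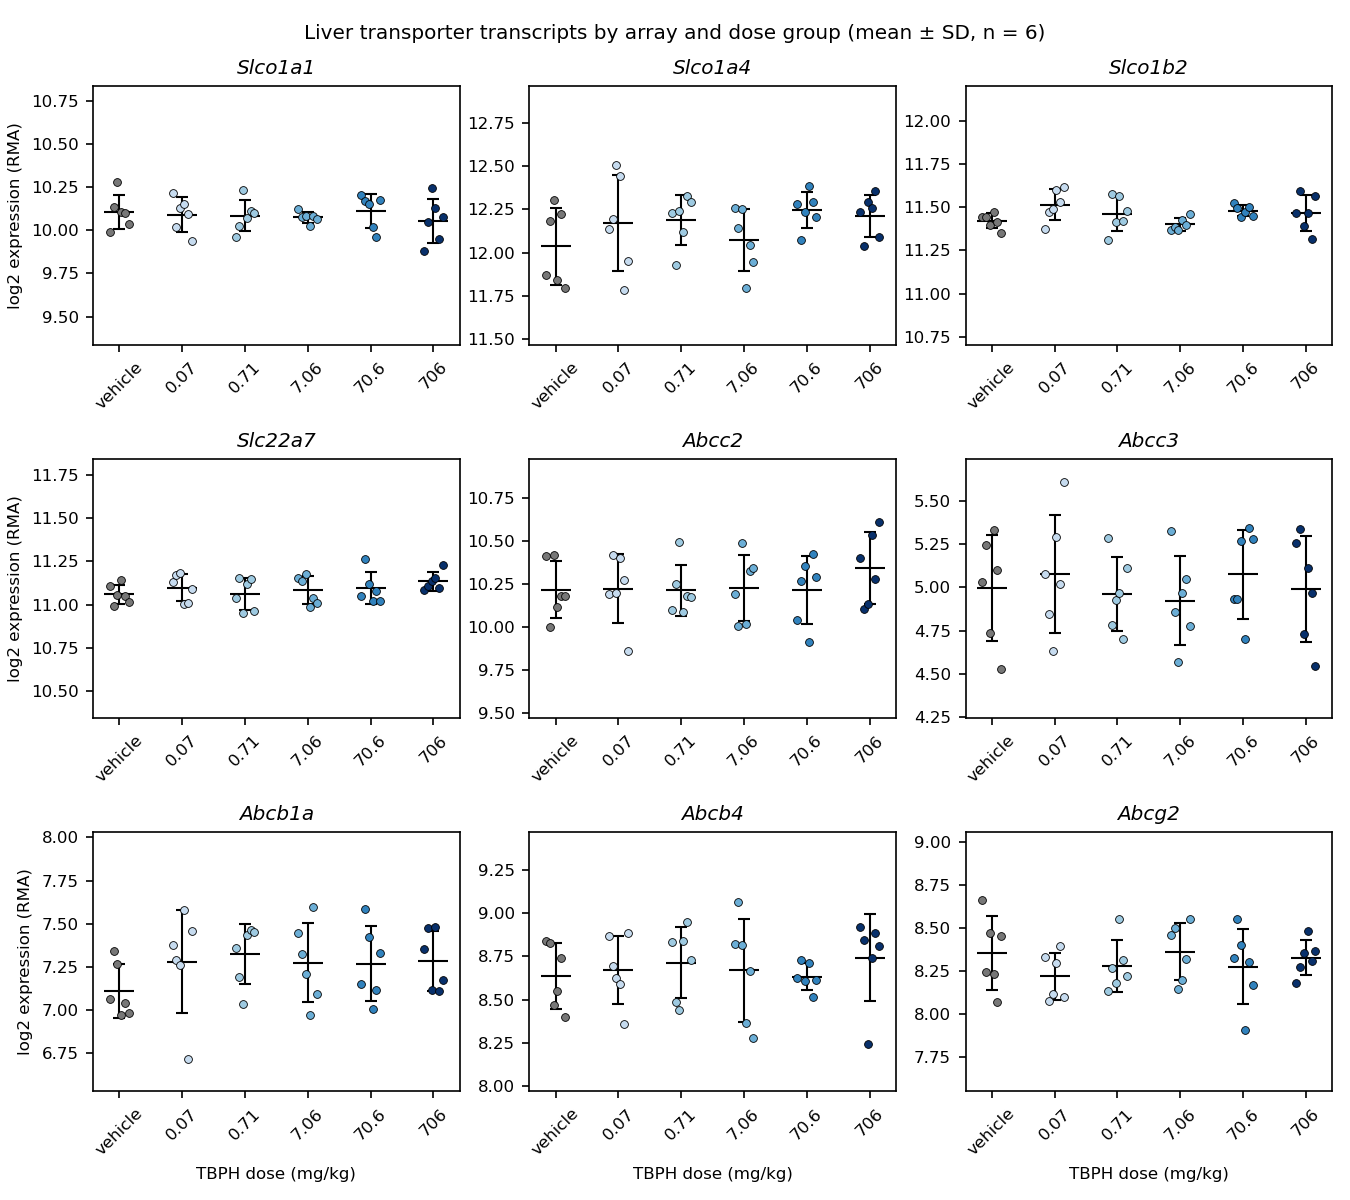
Log2 RMA expression (y axis) of the 9 transporter genes in each of the 36 arrays, by TBPH dose group (x axis); points are arrays, horizontal bars the group means and error bars the SD (n = 6), and every panel spans 1.5 log2 units. The 6 groups overlap in every panel, with narrow panels for Slco1b2 and Slc22a7 and a wide one for Abcc3.

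Slco1a4 encodes Oatp1a4, a basolateral uptake carrier of bile acids, steroid conjugates and cardiac glycosides, and is a classical PXR target in rat. In vehicle its lowest, median and highest values were 11.80, 12.03 and 12.30 log2. At 70.6 mg/kg they were 12.07, 12.26 and 12.38, and at 706 mg/kg 12.04, 12.25 and 12.36. All 6 arrays of each of these doses lay above the vehicle median, and 1 of 6 above the highest vehicle array. At the low doses the arrays ran from 11.78 to 12.51 (0.07 mg/kg, median 12.17), from 11.93 to 12.33 (0.71 mg/kg, median 12.23) and from 11.79 to 12.26 (7.06 mg/kg, median 12.09). The group means ascended from vehicle through 7.06, 0.07, 0.71 and 706 to 70.6 mg/kg, an order that does not follow dose. At 70.6 mg/kg the mean was 12.25 ± 0.10 against 12.04 ± 0.22 in vehicle (SD, n = 6 arrays each), a difference of 0.21 with a 95% interval of -0.0018 to 0.42 (limma, adjusted p = 0.921). At 706 mg/kg the difference was 0.18 (-0.04 to 0.39; limma, adjusted p = 1.00). The dimmer probe set of Slco1a4 differed by 0.25 (-0.02 to 0.52) and 0.15 (-0.12 to 0.41) at these doses.

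Slco1b2 encodes Oatp1b2, a liver-specific uptake carrier of statins, bile acids and unconjugated bilirubin, and its brighter probe set had the lowest within-group SD of the 9 chosen probe sets. Its lowest, median and highest values in vehicle were 11.35, 11.43 and 11.48 log2. The corresponding values were 11.37, 11.51 and 11.62 at 0.07 mg/kg and 11.31, 11.45 and 11.58 at 0.71 mg/kg. They were 11.37, 11.39 and 11.46 at 7.06 mg/kg, 11.45, 11.48 and 11.53 at 70.6 mg/kg and 11.31, 11.47 and 11.60 at 706 mg/kg. At 70.6 mg/kg all 6 arrays lay above the vehicle median, and 3 above every vehicle array. That difference, 0.06 (95% interval -0.04 to 0.16), had an exact permutation p of 0.0238, which became 0.633 after adjustment over the 45 pairs. The smallest exact p that 6 against 6 arrays allow is 0.00216. At 0.07 mg/kg the difference was 0.09 (-0.01 to 0.20), with 4 of 6 arrays above all vehicle arrays and an exact permutation p of 0.0498 (0.633 adjusted). In the dimmer probe set the differences at 70.6 and 0.07 mg/kg were smaller, 0.02 (-0.16 to 0.19) and 0.05 (-0.13 to 0.23). At 706 mg/kg the difference was 0.04 in the brighter probe set and -0.02 in the dimmer one.

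Slc22a7, the organic anion transporter Oat2, carries nucleotides, prostaglandins and several drugs. Its lowest, median and highest values were 10.99, 11.05 and 11.14 log2 in vehicle and 11.08, 11.12 and 11.23 at 706 mg/kg. All 6 arrays of the highest dose lay above the vehicle median, 2 of them above every vehicle array. The difference was 0.08 with a 95% interval of -0.03 to 0.18 (limma, adjusted p = 1.00), and an exact permutation p of 0.0411 became 0.633 after adjustment over the 45 pairs. At the other 4 doses single arrays ran from 10.95 to 11.27, and the differences from vehicle were between 0.0026 and 0.04.

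Slco1a1, the uptake carrier Oatp1a1, whose expression in rat liver is male-biased, kept within a narrow band. Its lowest, median and highest values were 9.99, 10.10 and 10.28 log2 in vehicle and 9.88, 10.06 and 10.24 at 706 mg/kg. At the other doses the arrays ran from 9.94 to 10.23. The highest dose had the lowest group mean, 10.05 ± 0.13 against 10.11 ± 0.10 in vehicle (SD, n = 6 arrays each), and 2 of its 6 arrays fell below every vehicle array. This difference of -0.05 had a 95% interval of -0.17 to 0.07 (limma, adjusted p = 1.00), and the 5 differences of the gene lay between -0.05 and 0.0058.

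Abcc2 encodes Mrp2, the canalicular pump for glutathione, glucuronide and sulfate conjugates including conjugated bilirubin. Vehicle arrays ran from 9.998 to 10.42 log2 around a median of 10.18; the lowest, median and highest were 10.10, 10.34 and 10.61 at 706 mg/kg. At the highest dose 4 of 6 arrays lay above the vehicle median and 2 above all vehicle arrays. The mean there was 10.34 ± 0.21 against 10.22 ± 0.17 (SD, n = 6 arrays each), a difference of 0.13 with a 95% interval of -0.09 to 0.34 (limma, adjusted p = 1.00). At the other 4 doses the means differed from vehicle by -0.0026 to 0.01, while single arrays ran from 9.86 to 10.49.

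Abcb1a, the canalicular drug pump P-glycoprotein that expels bulky lipophilic drugs, had its lowest group mean in vehicle. The lowest, median and highest vehicle values were 6.97, 7.05 and 7.34 log2. They were 6.71, 7.33 and 7.58 at 0.07 mg/kg, 7.03, 7.40 and 7.46 at 0.71 mg/kg and 6.97, 7.26 and 7.59 at 7.06 mg/kg. At 70.6 mg/kg they were 7.01, 7.24 and 7.58, and at 706 mg/kg 7.11, 7.26 and 7.48. At least 5 of 6 arrays of every dose lay above the vehicle median, and between 2 and 4 lay above every vehicle array. The differences were close to each other, from 0.16 at 70.6 mg/kg to 0.21 at 0.71 mg/kg (95% interval -0.03 to 0.45; limma, adjusted p = 1.00). They share the same 6 vehicle arrays, so their common sign is not 5 separate observations. In the dimmer Abcb1a probe set the differences spread more widely, from 0.04 at 706 mg/kg to 0.26 at 0.07 mg/kg. A further probe set is annotated to both Abcb1a and Abcb1b and was not used; how far the transcript of the close paralog Abcb1b reaches the Abcb1a probe sets was not tested.

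Abcb4 encodes Mdr2, the canalicular floppase that delivers phosphatidylcholine to bile. The lowest, median and highest arrays were at 8.40, 8.64 and 8.84 log2 in vehicle and 8.24, 8.83 and 8.92 at 706 mg/kg. At the highest dose 3 of 6 arrays exceeded all vehicle arrays, and 1, replicate 3, lay below all of them. The difference was 0.10 (95% interval -0.14 to 0.34; limma, adjusted p = 1.00). At 70.6 mg/kg the 6 arrays spanned 8.52 to 8.73, and at 7.06 mg/kg 8.28 to 9.06.

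Abcg2, the breast cancer resistance protein, exports sulfate conjugates and many drugs at the canalicular membrane. From lowest through median to highest, its values were 8.07, 8.35 and 8.66 log2 in vehicle and 8.18, 8.33 and 8.48 at 706 mg/kg. The lowest group mean was at 0.07 mg/kg, 8.22 ± 0.14 against 8.36 ± 0.21 in vehicle (SD, n = 6 arrays each), where 1 of 6 arrays exceeded the vehicle median and none fell below the lowest vehicle array. That difference was -0.14 (95% interval -0.33 to 0.06; limma, adjusted p = 1.00).

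Abcc3, the basolateral pump Mrp3 that returns glucuronides to blood and is scarce in unexposed rat hepatocytes, was dim. Its mean over the 36 arrays was 5.01, with 48.7% of all probe sets below it. Its lowest, median and highest values were 4.53, 5.07 and 5.33 log2 in vehicle and 4.55, 5.04 and 5.34 at 706 mg/kg. The difference at 706 mg/kg was -0.0025 with a 95% interval of -0.32 to 0.31, and over the 5 doses it lay between -0.07 and 0.08. The signal of so dim a probe set may be mostly background, which was not tested.

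Without the array that stood apart at each of 70.6 and 0.07 mg/kg, 0 of the 18 differences at these doses passed (limma, adjusted p of 0.999 or more). Slco1a4 was then 0.20 above vehicle at 70.6 mg/kg and 0.08 at 0.07 mg/kg, where it had been 0.13. Slco1b2 was at 0.06 and 0.08, and Abcb1a at 0.19 and 0.11, the last against 0.17 with all arrays. Abcg2 was at -0.08 and -0.15. Abcc2 was at -0.04 and -0.03, and Abcb4 at 0.02 and 0.05. The differences of Slc22a7 were 0.04 and 0.06, those of Slco1a1 0.04 and -0.03, and those of Abcc3 0.03 and 0.04.

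**Figure D2:**
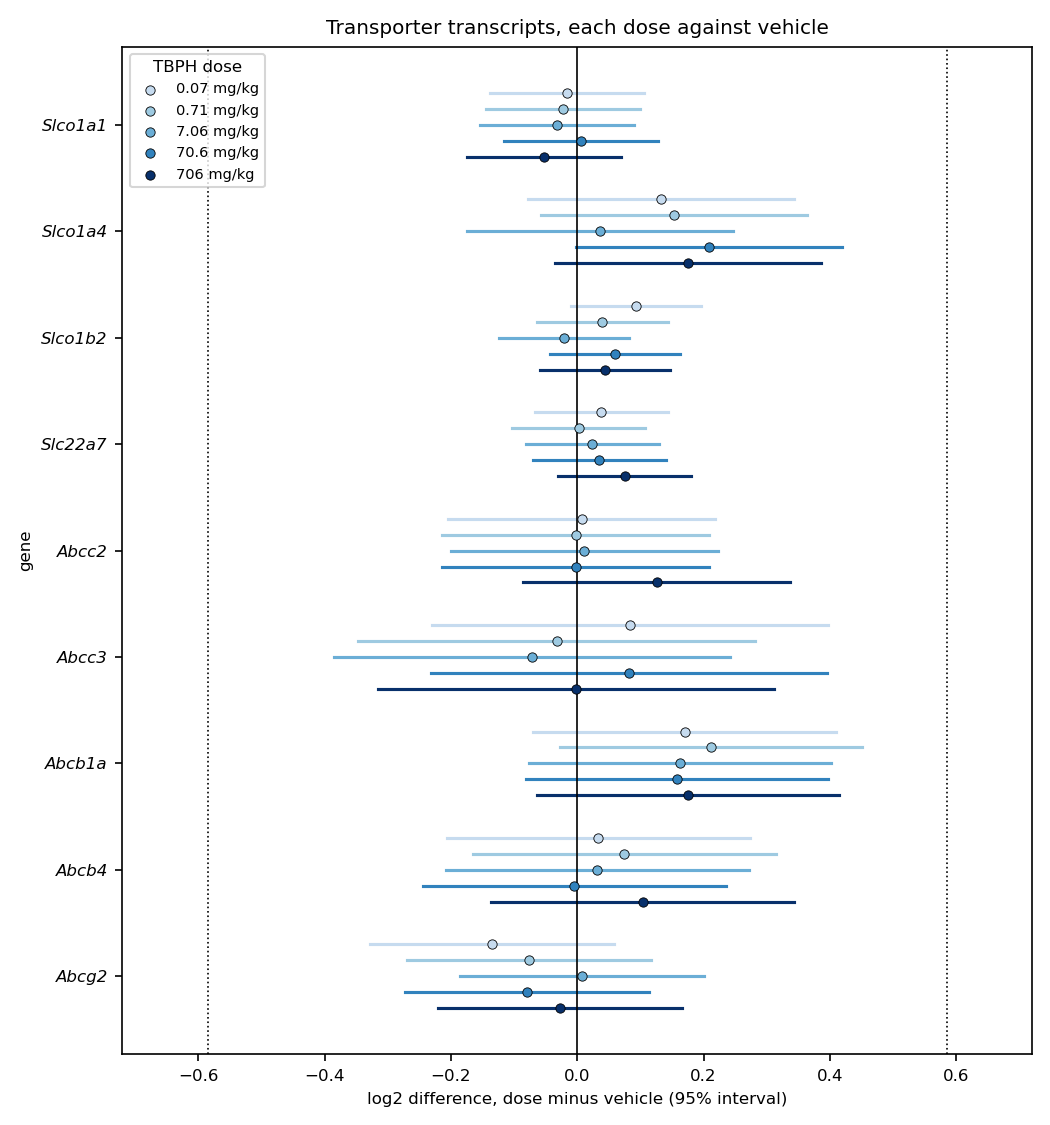
Log2 difference from vehicle (x axis) with its 95% interval for each of the 9 genes (y axis) at the 5 TBPH doses, shaded from light (0.07 mg/kg) to dark (706 mg/kg); dotted lines mark 1.5-fold changes. All 45 intervals lie inside the dotted lines, and the Slco1a4, Slc22a7 and Abcb1a estimates lie right of 0 at all 5 doses.

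The order of the 6 group means differed from gene to gene, and no 2 neighbours in any order were separated by more than the spread. In all 9 genes the largest gap between neighbouring group means was under 1 within-group SD, and in 7 the whole range of the means was. That range went from 0.06 log2 (Slco1a1) to 0.21 (Abcb1a). No gene had a slope over dose rank at an adjusted p under 0.05 (limma, 0% of all probe sets; 4.16% at an unadjusted p under 0.05). The steepest member was Slco1a4, at 0.03 log2 per dose step (95% interval -0.0071 to 0.06; limma, adjusted p = 0.998). For any difference among the 6 groups the members' smallest unadjusted p was 0.284, for Slco1b2, where 0% of all probe sets passed after adjustment and 2.54% before it. At 706 mg/kg the mean exceeded vehicle in 6 members and fell short of it in 3, the median difference being 0.08. Beside it 48.4% of all probe sets were higher, with a median of -0.0034, or 0.0059 over 1 probe set per gene. From 70.6 down to 0.07 mg/kg the members were 6 and 3, 6 and 3, 5 and 4, and 7 and 2. Their medians were 0.035, 0.011, 0.0026 and 0.038, beside 48.9%, 48.1%, 47.9% and 48.1% of all probe sets higher. Over 1 probe set per gene the medians at these doses were 0.011, 0.0079, 0.0067 and 0.0026.

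The genes differed in how much they varied between arrays of the same group. Slco1b2 and Slc22a7 had within-group SDs of 0.075 and 0.078 log2, less than all but 5.25% and 6.23% of the 7843 genes with a mean of at least 6. The dimmer Slco1b2 probe set had an SD of 0.15, so the low spread is that of the brighter probe set. That SD includes the 2 arrays that stood apart, where the dimmer probe set deviated by -0.36 (0.07 mg/kg) and -0.41 (70.6 mg/kg). The SD without them was not tested. Slco1a1 had an SD of 0.096. Abcb1a and Abcb4 had SDs of 0.21 each, above 86.3% and 86.5% of these genes. Slco1a4 and Abcc2, both at 0.19, exceeded about 79.7% and 79.8%, and Abcg2, at 0.17, exceeded 73.2%. From the lowest to the highest of the 36 arrays Slco1b2 spanned 1.24-fold, Slco1a4 1.65-fold, Abcb4 1.77-fold, Abcb1a 1.84-fold and Abcc3 2.12-fold.

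Within groups the transporters did not vary as a block. Over the 36 pairs of the 9 genes, Pearson's r of the deviations from group means ran from -0.36 to 0.53 with a median of 0.10, and 22 pairs were positive and 14 negative. The permutation test (arrays permuted within groups, two-sided, 100000 resamples) gave 0 pairs with an adjusted p under 0.05 over the 36 pairs and 4 with an unadjusted p under 0.05. Spearman's rho also gave 0 after adjustment. Among the 6 pairs of uptake genes the median r was 0.02, and among the 10 pairs of efflux genes 0.09.

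**Figure D3:**
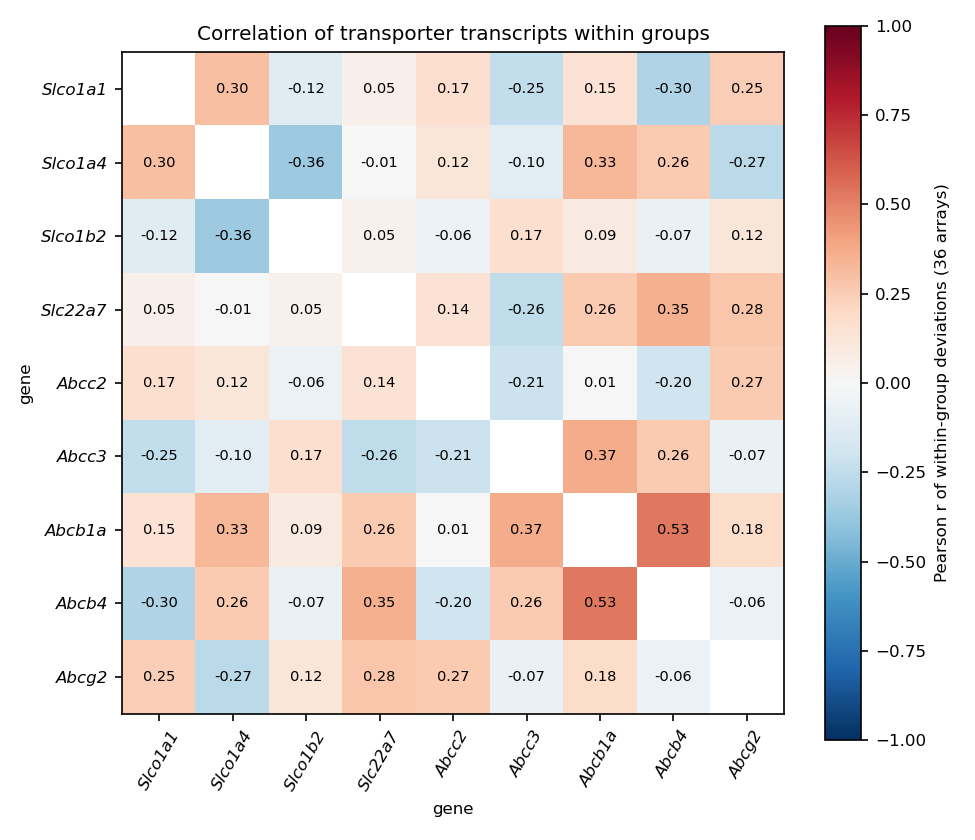
Pearson's r between the within-group deviations of each pair of the 9 genes over 36 arrays (both axes are genes; red is positive, blue negative, scale -1 to 1). The strongest square is Abcb1a with Abcb4 at 0.53, and the other pairs lie between -0.36 and 0.37.

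The highest correlation was between the drug pump Abcb1a and the phospholipid floppase Abcb4, whose genes lie side by side but for Abcb1b and whose windows are printed above. Pearson's r was 0.53 (permutation p = 0.0020, adjusted p = 0.072) and Spearman's rho 0.48 (permutation p = 0.0064, adjusted p = 0.229). Within single groups of 6 arrays r was positive in 6 of 6, from 0.29 at 70.6 mg/kg to 0.91 at 0.71 mg/kg. Without the 2 arrays farthest from the Abcb1a median r was 0.40, and without replicate 5 at 0.07 mg/kg, the lowest array of its group for both genes (6.71 and 8.36), it was 0.46 (permutation test, adjusted p = 0.355). Without the 2 arrays that stood apart r was 0.56 (permutation test, adjusted p = 0.045). With the dimmer Abcb1a probe set r was 0.39 (rho = 0.39, permutation p = 0.0255 and 0.0271; adjusted p = 0.034 for r over 4 relations). Without the 2 farthest arrays that r was 0.27. These genes share much of their sequence, and the part of shared probe signal in the correlation was not tested.

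The other pairs with an unadjusted permutation p under 0.05 did not pass. Abcc3 and Abcb1a had r = 0.37 and rho = 0.40 (permutation p = 0.0478 and 0.0275; adjusted p = 0.393 and 0.331), and r = 0.31 without the 2 farthest arrays. For Slc22a7 and Abcb4 r was 0.35 and rho 0.34 (permutation p = 0.0434 and 0.0611; adjusted p = 0.393 and 0.440), and r without the 2 farthest arrays was 0.35. Slco1a4 and Slco1b2 had r = -0.36 and rho = -0.39 (permutation p = 0.0415 and 0.0261; adjusted p = 0.393 and 0.331), and r = -0.38 without the 2 farthest arrays. Without the 2 arrays that stood apart its r was -0.46 (permutation p = 0.0068, adjusted p = 0.123). Within groups the last pair ran from -0.97 at 706 mg/kg to 0.05 at 70.6 mg/kg. With the dimmer probe sets of both genes its r was 0.24, the opposite sign.

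The paired probe sets of a gene varied together in Slco1a4 and Abcb1a, and no such relation was detected in Slco1b2. The deviations of the Slco1a4 probe sets had r = 0.87 and rho = 0.86, and those of Abcb1a r = 0.74 and rho = 0.70 (permutation p = 1e-05 for each r and for the first rho, the smallest that 100000 resamples can give, and 2e-05 for the second rho; adjusted p = 2e-05 for each r over 4 relations). For Slco1b2 r was 0.05 and rho 0.18 (permutation p = 0.789 and 0.292; adjusted p = 0.789 for r), and without the 2 arrays that stood apart r was 0.27. Without the 2 farthest arrays r was 0.85, 0.61 and 0.0018 for Slco1a4, Abcb1a and Slco1b2. The dimmer Slco1b2 probe set was at 10.32 log2 in replicate 4 at 0.07 mg/kg and at 10.24 in replicate 5 at 70.6 mg/kg. These were the lowest of each group, whose medians were 10.76 and 10.71, and are the 2 arrays that stood apart.

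**Figure D4:**
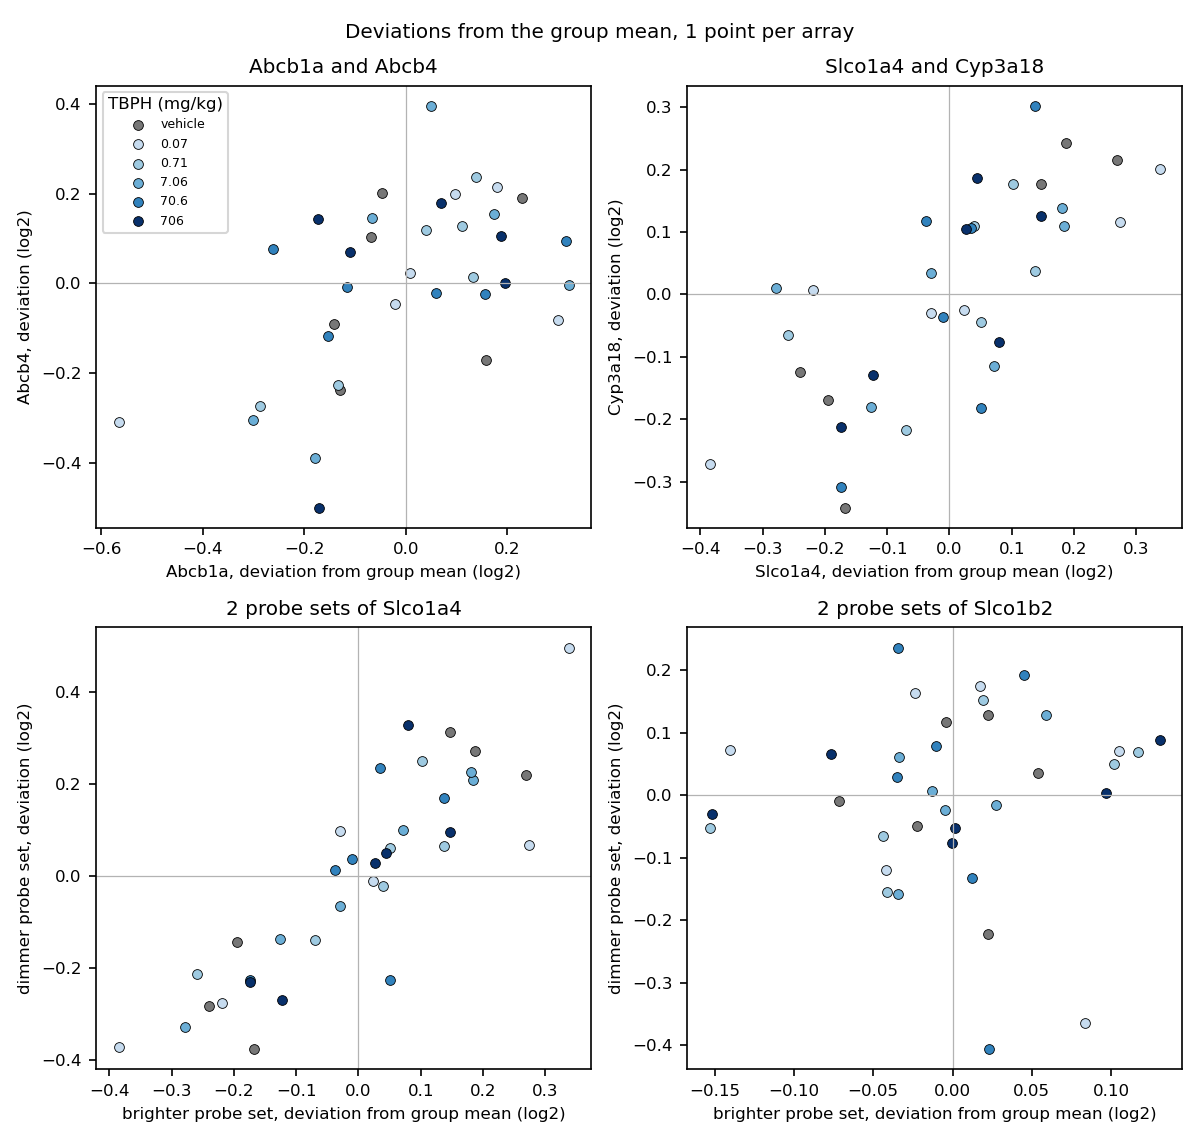
Deviations from the group mean (log2, both axes), 1 point per array and 36 per panel, shaded by TBPH dose: Abcb1a with Abcb4 (r = 0.53), Slco1a4 with Cyp3a18 (r = 0.72), and both probe sets of Slco1a4 (r = 0.87) and of Slco1b2 (r = 0.05). The Slco1a4 probe sets fall on a line, and those of Slco1b2 do not. Cyp3a18 is shown because it had the highest r with Slco1a4 among 7843 genes.

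The genes whose within-group pattern was most like each transporter were listed, out of 7843 genes with a mean of at least 6 log2. The lists are a description over 36 arrays with no test. Each r is among the 3 highest of that many values, so its size alone does not show a relation. The gene most like Slco1a4 was Cyp3a18, a cytochrome of the CYP3A family, at r = 0.72 (rho = 0.72, and r = 0.75 without the 2 arrays that stood apart), followed by Ctnnal1 (0.71) and Hnrnpa0 (0.67). Slc22a7 was followed most closely by Mbl1, the hepatocyte lectin of the complement pathway, at 0.78, then Pc, pyruvate carboxylase, and Dhrs4 at 0.73 each. The gene nearest Abcb4 was Slc22a5, the carnitine transporter Octn2, at 0.76, then Eps8l2 (0.73) and Pabpc4 (0.71). Abcc3 lay nearest Aldh1a1, the retinaldehyde dehydrogenase, at 0.63, with Rpl7 at 0.63 and Eef1g at 0.60. Abcg2 was most like Aldh1b1 (0.73), Kyat1 (0.73) and Lamtor4 (0.70), and Abcc2 like Zscan21 (0.75), Tpcn2 (0.73) and Tbc1d14 (0.72). Slco1a1 had Reln (0.70), Ncoa6 (0.68) and Sf3b1 (0.67), and Abcb1a had Ube2d1 (0.64), Slc12a7 and Cnst (0.63 each). The weakest list was that of Slco1b2, with Arap1 (0.59), Rbks (0.58) and Hic1 (0.55). None of the 9 was among the 3 nearest genes of another. Abcc3, with a mean of 5.01, was below the floor of 6 and could not have been listed for another gene.

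The means of the 10 marker lists, hepatocyte markers included, and the GAPDH control difference were set against the 9 genes in 99 relations within groups. After adjustment 0 had a permutation p under 0.05; before it there were 5. The strongest was Slco1a4 with the mean of 4 small intestine markers, at r = -0.52 and rho = -0.56 (permutation p = 0.00516 and 0.00127, adjusted p = 0.345 for r), and r = -0.40 without the 2 farthest arrays. That marker mean lay between 4.79 and 5.32 log2 over the arrays. Abcc2 had 3 of the 5, with the GAPDH difference and with the brain capillary (r = 0.45) and kidney tubule (r = -0.42) markers. Without the 2 farthest arrays these marker correlations were 0.34 and -0.25. The means of both lists were dim. The brain capillary mean lay between 4.54 and 5.11 log2, with 2 of 4 genes under 5, and the kidney mean between 3.69 and 4.09. Single brain capillary genes averaged from 2.78 (Slco1c1) to 6.98 (Mfsd2a), and the part of each in the correlation was not tested. Whether these signals come from such cells was not tested. With the GAPDH difference Abcc2 had r = 0.47 and rho = 0.46 (permutation p = 0.0115 and 0.0082, adjusted p = 0.345 for r). Its r was 0.41 without the 2 farthest arrays, which are those that stood apart. Slc22a7 had r = -0.43 (rho = -0.46) with the mean of 7 stellate cell markers (permutation p = 0.0174 and 0.0127, adjusted p = 0.345 for r), and -0.32 without the 2 farthest arrays. The part of RNA quality or cell composition in the levels of these genes was not tested further.

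Transporters outside the list, and the genes that regulate or accompany them, gave no call either. In 7 lists with 83 measured genes, 0 passed at any dose (limma, adjusted over all probe sets). Of 16 other uptake transporters 5 were higher and 11 lower at 706 mg/kg, with a median of -0.04 against 0.006 over all genes, and Slco4a1 (-0.11) and Slco1a5 (-0.14) had the smallest p. Of 15 other efflux transporters 10 were higher and 5 lower (median 0.01), and single genes ran from -0.51 to 0.53. The lowest gene of this list was at -0.52 at 0.71 mg/kg. At 706 mg/kg Abcg5 and Abcg8, whose products join to pump sterols into bile, differed by 0.50 (95% interval 0.05 to 0.96) and 0.53 (0.05 to 1.00). Each had a limma adjusted p of 1.00. At 70.6 mg/kg they differed by 0.54 and 0.53, at 7.06 mg/kg by 0.17 and 0.16, at 0.71 mg/kg by 0.30 and 0.15, and at 0.07 mg/kg by 0.56 and 0.49, all against the same vehicle arrays and with limma adjusted p of 0.921 or more. Among 7 scaffold and trafficking genes Rdx, the membrane-cytoskeleton linker radixin, differed by 0.06 and Msn by 0.07, and the list had 4 higher and 3 lower, against 7 and 0 at 7.06 mg/kg.

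Of 14 transcriptional regulators of transporter genes, 9 were higher and 5 lower at 706 mg/kg (median 0.04), from -0.23 to 0.18. Rxra, the shared partner of CAR and PXR, differed by 0.18 (95% interval -0.01 to 0.37) and Stat5b by 0.17 (-0.03 to 0.38). Among 12 enzymes induced through CAR and PXR 9 were higher and 3 lower (median 0.07). Its members with the smallest p were the epoxide hydrolase Ephx1 (0.24, 95% interval 0.05 to 0.42) and the carboxylesterase Ces2c (0.18). NRF2 targets were higher in 7 and lower in 2 of 9 genes with a median of 0.03, with Gclc, which starts glutathione synthesis, at -0.18 and Gsta3 at 0.43. PPAR alpha targets were higher in 8 and lower in 2 of 10 genes with a median of 0.05, with Acot2 at 0.22 and Ehhadh at 0.21. Apart from that of the other efflux transporters, the splits did not hold across doses. PPAR alpha targets were 3 higher and 7 lower at both 70.6 and 7.06 mg/kg. They were 6 and 4 at 0.71 mg/kg, and 10 and 0 at 0.07 mg/kg, where Ehhadh was at 0.26. NRF2 targets were 4 higher and 5 lower at 70.6 and 7.06 mg/kg and 3 and 6 at 0.71 and 0.07 mg/kg. Enzymes induced through CAR and PXR were 8 and 4, 6 and 6, 6 and 6, and 11 and 1 from 70.6 down to 0.07 mg/kg. The transcriptional regulators were 8 and 6, 12 and 2, 7 and 7, and 6 and 8. Other uptake transporters were between 7 and 9 higher of 16 at these doses, and other efflux transporters 10 or 11 higher of 15. All doses share the same vehicle arrays, so a split that held was not observed separately at each dose. Each of the counts at 706 mg/kg stands beside a median of 0.006 over all genes, and none of the genes passed.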

How the data were processed

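RNA from the left liver lobe was hybridised to Affymetrix rat expression arrays, 1 sample per array. The deposited table holds log2 expression values made by the authors with RMA (the affy package is also named), per the submitters' processing notes; versions are not given in the sources used here. RMA background correction and quantile normalization compress small differences of dim probe sets. The table lists 31099 probe sets; removing 57 controls of the array left 31042 for testing. A single limma fit (limma 3.58.1, R 4.3.3) covered all 36 arrays with 30 residual degrees of freedom and Benjamini-Hochberg adjustment, called at 0.05. Exact permutation tests were two-sided. Arrays stood apart where they lay over 3 median absolute deviations out on both the first component and the GAPDH difference. Alternatives were other normalizations, variance models, array sets and probe sets. The fit and the correlation test were tested on simulated data. Named genes were the 9 members, their other probe sets, the 3 genes most like each, and the 2 of each list with the smallest p at 706 mg/kg. Members and lists were chosen with earlier results of these data known. Gene names came from the platform annotation. The number of arrays limits the precision.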

Additional observations from a re-analysis of the deposited data

Results flagged for a closer look

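Among 54 sets of 6 arrays (9 genes in 6 groups), 2 held an array far from the others by Dixon's ratio at the 95% level (critical value 0.625 for 6 arrays). Chance marks about 1 in 20 such sets. Abcb1a was at 6.71 log2 in replicate 5 at 0.07 mg/kg, where the nearest array was at 7.26 (ratio 0.629). Abcb4 in the same array was at 8.36, also the lowest of its group. Abcb4 was at 8.24 in replicate 3 at 706 mg/kg, where the nearest array was at 8.74 (ratio 0.736). Abcb1a in that array was at 7.12, beside a group minimum of 7.11 in replicate 5. Neither array was among the 2 that stood apart on the first principal component and the GAPDH difference.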

How the results depend on the processing

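Calls over all probe sets and among the members stayed at 0 in every alternative run. Of 507 single-gene values under alternatives, 23 changed sign over 14 results, with a size of at most 0.08 log2 in the reported value and 0.03 in the alternative. Under repeated quantile normalization Slco1a1 at 70.6 mg/kg was -0.014, Slc22a7 at 0.71 mg/kg -0.016, Abcc2 at 7.06 and 0.07 mg/kg -0.012 and -0.0049, Abcc3 at 706 mg/kg 0.018 with a slope of 0.0012, Abcb4 at 7.06 mg/kg -0.00065, and Abcg2 at 7.06 mg/kg -0.018 with a slope of -0.0013. With array weights Slc22a7 at 0.71 mg/kg was -0.0055, Abcc2 at 0.71 mg/kg 0.0080, Abcc3 at 706 and 0.07 mg/kg 0.020 and -0.0090 with a slope of 0.0039, and Abcb4 at 70.6 mg/kg 0.0066. With median-centred arrays Abcc2 at 70.6 and 0.71 mg/kg was 0.011 and 0.0069, Abcc3 at 706 mg/kg 0.010 with a slope of 0.00068, and Abcb4 at 70.6 mg/kg 0.0092. Without the 2 arrays that stood apart Abcc2 at 0.07 mg/kg was -0.029 and Abcb4 at 70.6 mg/kg 0.019. With the dimmer probe sets Slco1b2 at 706 mg/kg was -0.024 and the r of Slco1a4 and Slco1b2 was 0.24. The cause was not tested.

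The count of correlated pairs, 0 as reported, was 1 (Abcb1a and Abcb4) with median-centred arrays, without the arrays that stood apart and with group means not removed. Leaving out each array in turn gave 0 to 1 pairs, with 1 without vehicle replicate 3, 0.07 mg/kg replicate 4, 7.06 mg/kg replicate 5, 70.6 mg/kg replicate 4 or 706 mg/kg replicate 5. The adjusted permutation p of that pair ran from 0.0227 to 0.502 over the alternatives, so its side of the threshold is not settled by 36 arrays. No pairing of the samples by replicate number was detected. Deviations of same-numbered arrays correlated at -0.41 to 0.27 over 90 pairs, and 4 of 36 arrays correlated best with their own number. With the replicate block the calls were 0 in each comparison and the r of Abcb1a and Abcb4 was 0.52 (permutation test, adjusted p = 0.167).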
